A study of Mus musculus with 5 samples.

Results

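The genes described here encode the machinery that brings proteins into mitochondria, measured in 4T1 cancer cells growing in mouse lungs. They were chosen by name, as every gene of the deposited cancer cell table whose symbol starts with Tomm or Timm, which gave 27 of 23771 genes. A filter of 10% of cancer cells with a UMI (a counted RNA molecule) in one or the other library was passed by 24 of them. Among the other 3, Tomm20l and Timm8a2 were not seen in any cancer cell, for which the floor used here, 3 cells, is a share of 10.3% in the control library and 2.16% in the other, and the exact upper limits are 11.9% and 2.62%. Tomm6os, an antisense transcript that overlaps Tomm6, was seen in 1 cell of each library.

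The cells came from lungs of female BALB/c mice that were 11 weeks old at collection. Mice were first injected by vein, 3 times a week for 3 weeks, with control medium (CM) or with medium in which pieces of 4T1 tumor had been kept (TSF, for tumor-secreted factors). Both groups were then given 25000 cells of 4T1, a mouse mammary carcinoma line, that carried the CD90.1 reporter, and lungs were taken at day 16. Each group was 1 library, made from the pooled lungs of 3 mice, so no difference below has a replicate check and none was tested. Shares of cells carry exact 95% intervals (Clopper-Pearson), which cover counting error only. The mean levels come without an error, because single-cell values were not used here.

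Nearly all mitochondrial proteins are made in the cytosol and must cross the outer membrane through the TOM complex, which is built from the Tomm proteins. From there, small Tim proteins of the intermembrane space carry hydrophobic cargo to the inner membrane. In that membrane TIM22 inserts carrier proteins, while TIM23 passes proteins with a targeting presequence to the matrix, pulled by a motor that Timm44 anchors. Most subunits of the respiratory chain and all proteins of the mitochondrial ribosome take this route.

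The TSF library held 139 cancer cells and the CM library 29. Their median depth was 26615 and 27679 UMIs per cell, and 10.1% and 27.6% of them had under 10000 UMIs. No cancer cell barcode was shared between the libraries. Krt8 and Krt18, keratins of epithelial cells, were seen in at least 28 of 29 CM cells and 137 of 139 TSF cells. Krt19 and Cdh1, also of epithelial cells, were seen in 9 and 2 CM cells and in 53 and 35 TSF cells. Epcam, a surface protein of epithelial cells, was seen in 27.6% of CM cells (interval 12.7 to 47.2%) and 68.3% of TSF cells (interval 59.9 to 76.0%), and the reporter in 2 CM cells and 48 TSF cells. Among markers of other cell types, the fibroblast marker Pdgfra was seen in 44.8% of CM cells and 45.3% of TSF cells. Col1a1 and Col3a1, also of fibroblasts, were at 0 in CM and seen in 6 and 2 TSF cells. Markers of endothelium were seen in at most 3 CM cells and 9 TSF cells. Of 7 leukocyte markers, 5 were at 0 in the CM cells and 1 in the TSF cells. Their summed level was 21.5 and 5.24 CP10k. Cd74, of antigen presentation, made up 21.5 and 4.23 CP10k of it and was seen in 79.3% of CM cells and 57.6% of TSF cells. Its CM level includes the shallow CM cell described further on, which can have held up to 59 UMIs of Cd74. With that many, the CM level without the cell would be 0.563 CP10k. The neutrophil genes S100a9 and S100a8, at 0 in CM, had 0.685 and 0.300 CP10k in TSF, seen in 4 and 2 cells. The part of these differences between the libraries in the results below was not tested.

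Levels are mean CP10k, the UMIs of a gene per 10000 UMIs of a cell averaged over the cancer cells of a library. Ratios of TSF over CM are on the log2 scale after 0.1 CP10k was added to both means. A gene is called higher or lower where that ratio passes 1.5-fold in either direction. Of the 10201 genes past the filter, 7.33% were called higher and 17.3% lower in the TSF library, and the median gene stood at a log2 ratio of -0.13. Only 40.3% of those genes had a ratio above 0. Of the 24 import genes past the same filter, 13 had a ratio above 0, and 17 lay above the median of all genes.

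Called higher were 3 members, namely Tomm7, Tomm22 and Timm9, and called lower was 1, Tomm34. Beside the background of 7.33% and 17.3%, this is 3 of 24 and 1 of 24. The members were known by their values when they were proposed for description, so these counts are not evidence about the group. The member nearest below the limit on the high side was Timm13, at a log2 ratio of 0.53, and on the low side Timm44, at -0.54. Tomm22 was the called gene closest to the limit, at 0.83.

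**Figure D1:**
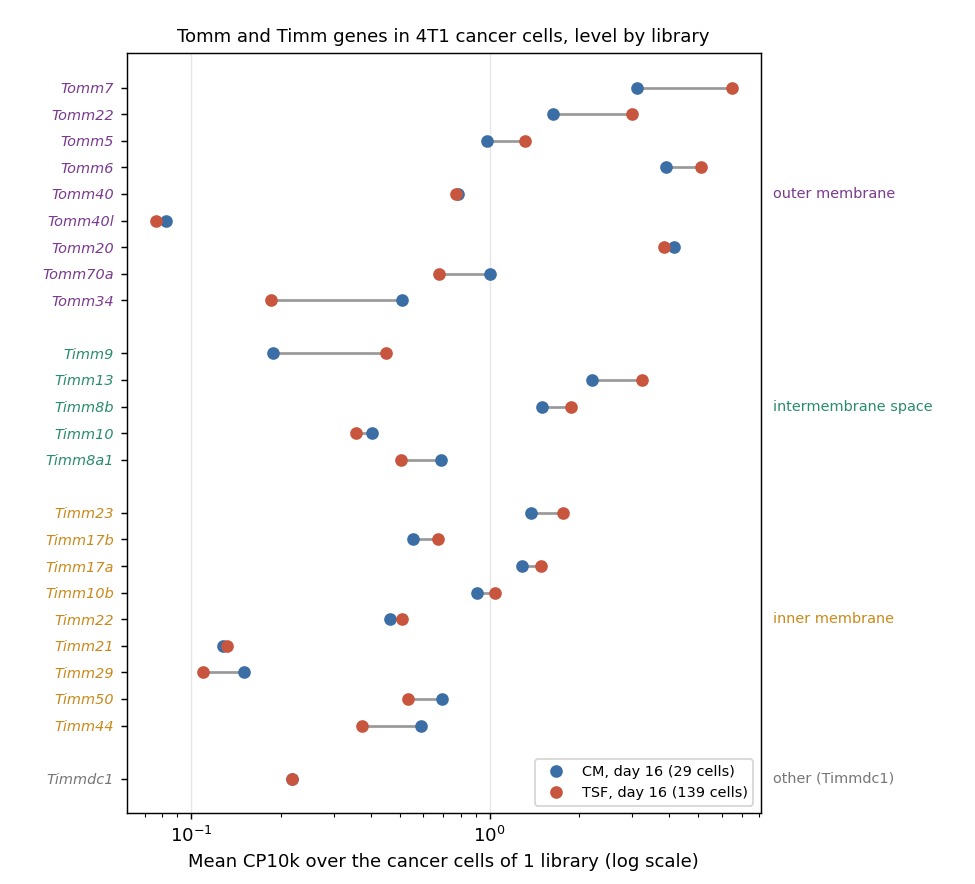
Mean CP10k (log scale) of the 24 Tomm and Timm genes past the filter in the cancer cells of the CM library (blue) and the TSF library (red) at day 16, by part of the machinery, with a grey line joining both values of a gene. The widest gaps are those of Tomm7, Tomm22 and Timm9, higher in TSF, and Tomm34, lower in TSF, while Tomm40 and Timmdc1 nearly coincide.

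The small subunits Tomm5, Tomm6 and Tomm7, which assemble around the TOM channel and steady it, were all higher in the TSF library. Tomm7 (GRCm38 chromosome 5, 23838944 to 23844161, minus strand) had 3.11 CP10k in the CM cells and 6.48 in the TSF cells, a ratio of 2.08 and a log2 ratio of 1.03. It was seen in 27 of 29 CM cells (93.1%, interval 77.2 to 99.2%) and 136 of 139 TSF cells (97.8%, interval 93.8 to 99.6%). Nearly every cell of both libraries thus had a UMI of Tomm7. Tomm6 had 3.90 and 5.11 CP10k in CM and TSF, a log2 ratio of 0.38. Tomm5 had 0.978 and 1.32 CP10k, a log2 ratio of 0.39, and was seen in 75.9% and 87.1% of cells. Both stayed within 1.5-fold. Together the small subunits took 7.99 CP10k in CM and 12.9 in TSF, 1.61 times as much.

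The import receptors, which recognise cargo at the mitochondrial surface, did not share a direction as deposited. The signs of Tomm20 and Tomm70a rest on the shallow CM cell described further on. Tomm22 (chromosome 15, 79670861 to 79673400, plus strand), the central receptor that also joins the channels of the complex, had 1.64 CP10k in CM and 2.99 in TSF, a log2 ratio of 0.83. It was seen in 26 of 29 CM cells (89.7%, interval 72.6 to 97.8%) and 130 of 139 TSF cells (93.5%, interval 88.1 to 97.0%). Tomm20, the receptor for presequences, had 4.14 CP10k in CM and 3.84 in TSF, a log2 ratio of -0.11. It was seen in 28 of 29 and 132 of 139 cells. Without the shallow cell its log2 ratio would be -0.03 if that cell held 1 UMI. With the most that its mean allows there, 10, it would be 2.46. Tomm70a, the receptor that takes carrier proteins from cytosolic chaperones, had 1.01 CP10k in CM and 0.677 in TSF, a log2 ratio of -0.51. Without the shallow cell that ratio would be 0.0012 if the cell held 1 UMI. Tomm70a was seen in 75.9% and 71.2% of cells. Of the receptors, Tomm22 alone was called.

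The level of the channel gene was close in both libraries as deposited, which rests on the shallow cell described further on. Tomm40, the pore through which proteins cross, had 0.784 CP10k in CM and 0.772 in TSF, a log2 ratio of -0.02 (0.68 without that cell if it held 1 UMI), and was seen in 82.8% and 75.5% of cells. Its paralog Tomm40l had 0.0825 and 0.0760 CP10k and was seen in 6 CM cells and 25 TSF cells. Reads of such paralogs can be hard to tell apart, which also holds for Timm17a and Timm17b.

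Tomm34 (chromosome 2, 164053540 to 164071169, minus strand) bears the family name but is known as a cytosolic cochaperone that binds Hsp70 and Hsp90. It had 0.509 CP10k in CM and 0.185 in TSF, a ratio of 0.363 and a log2 ratio of -1.10, which placed it at the 3.76 percentile of all genes past the filter. It was seen in 17 of 29 CM cells (58.6%, interval 38.9 to 76.5%) and 58 of 139 TSF cells (41.7%, interval 33.4 to 50.4%), and these intervals overlapped.

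The small Tims work as chaperone rings in the intermembrane space, Timm9 with Timm10 and Timm8a1 or Timm8b with Timm13. Timm9 (chromosome 12, 71123173 to 71136684, minus strand) had 0.188 CP10k in CM and 0.448 in TSF, a log2 ratio of 0.93. It was seen in 10 of 29 CM cells (34.5%, interval 17.9 to 54.3%) and 82 of 139 TSF cells (59.0%, interval 50.3 to 67.3%), the largest difference in share among the members on the TSF side. These intervals still overlapped. Its partner Timm10 had 0.403 CP10k in CM and 0.356 in TSF and was seen in 55.2% and 55.4% of cells. The log2 ratio of Timm10 was thus -0.14, beside 0.93 for Timm9, and a difference between these subunits was not tested.

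The other ring had 2 genes above 0 and 1 below it, whose sign rests on the shallow CM cell. Timm13 had 2.21 CP10k in CM and 3.25 in TSF, a log2 ratio of 0.53. Timm8b had 1.498 and 1.88 CP10k, a log2 ratio of 0.31, and was seen in 79.3% and 92.8% of cells. Timm8a1, the X-linked gene whose human counterpart is mutated in a syndrome of deafness and dystonia, had 0.687 and 0.506 CP10k, a log2 ratio of -0.38, which would be 0.45 without that cell if it held 1 UMI. Timm8a1 and Timm8a2 are close copies, so reads could be lost or split between them.

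As deposited, no inner membrane gene was called in either direction, a count that depends on 1 shallow cell (described further on). Timm23, the channel of the presequence route, had 1.38 CP10k in CM and 1.76 in TSF, a log2 ratio of 0.33, the highest of the 9, and was seen in 82.8% and 89.9% of cells. Its partners Timm17a and Timm17b, alternative subunits of the same channel, had log2 ratios of 0.19 and 0.24. Timm17a went from 1.29 to 1.48 CP10k and Timm17b from 0.554 to 0.672. Timm21, which links the TIM23 complex to the respiratory chain, had 0.128 and 0.132 CP10k.

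The inner membrane genes with ratios below 0 were Timm50, the receptor of TIM23, Timm44, the anchor of its motor, and Timm29, described below. Timm50 had 0.693 CP10k in CM and 0.533 in TSF, a log2 ratio of -0.33, and was seen in 72.4% and 66.9% of cells. Timm44 had 0.591 and 0.374 CP10k, a log2 ratio of -0.54, and was seen in 65.5% and 59.7% of cells. The signs of Timm50 and Timm44 rest on the shallow CM cell. With 1 UMI in it, the ratios without it would be 0.49 for Timm50 and 0.46 for Timm44.

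In the TIM22 complex, the channel protein Timm22 had 0.463 CP10k in CM and 0.510 in TSF, a log2 ratio of 0.12, and was seen in 58.6% and 65.5% of cells. Timm10b, the small Tim that docks on this complex and was counted with it here, had 0.909 and 1.04 CP10k. Timm29 had 0.150 and 0.110 CP10k, a log2 ratio of -0.25, and was seen in 8 CM cells and 36 TSF cells. The shallow CM cell cannot have held a UMI of Timm29, and without that cell the ratio is -0.29. Timmdc1, which carries a similar name but is a complex I assembly factor, had 0.218 CP10k in both libraries and was placed in neither membrane group.

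**Figure D2:**
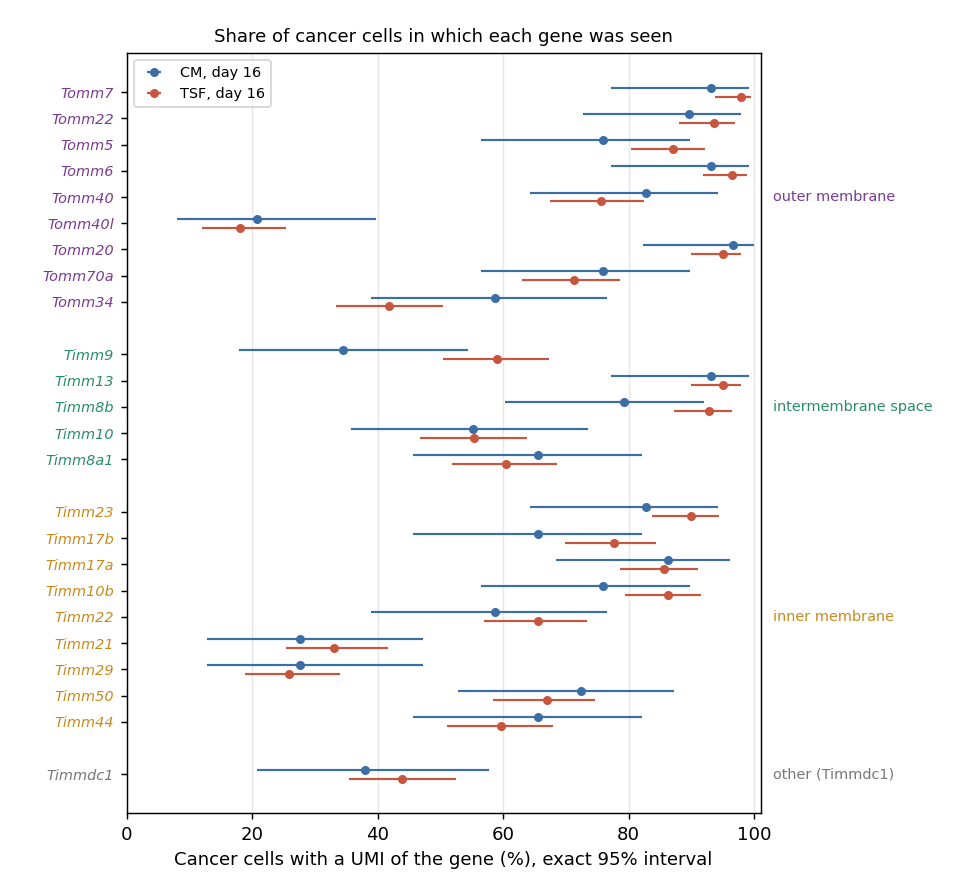
Percent of cancer cells in which each gene was seen (points) with exact 95% intervals (bars) in the CM library (blue, 29 cells) and the TSF library (red, 139 cells). The bars of every gene overlap, and those of the CM library are wider.

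By the share of cells in which they were seen, 14 of the 24 genes were higher in TSF and 10 lower, beside 49.1% of all genes past the filter that were higher. No member had intervals that lay apart. Over all genes this was the case for 1.14% with TSF higher and 1.51% with CM higher. The shares were not thinned to equal depth and the share in cell types that lack a gene was not analysed here, so the median depths above stand beside them.

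Outer and inner membrane genes were then set against each other. The 9 outer membrane genes past the filter had a median log2 ratio of -0.02 and ranged from -1.10 (Tomm34) to 1.03 (Tomm7). The 9 inner membrane genes had a median of 0.12 and ranged only from -0.54 (Timm44) to 0.33 (Timm23). The 5 small Tims had a median of 0.31, from -0.38 (Timm8a1) to 0.93 (Timm9). The order of the medians did not match that of the summed levels. Summed CP10k of the outer membrane genes was 16.2 in CM and 21.4 in TSF, a ratio of 1.33, against 6.15 and 6.61 for the inner membrane genes, a ratio of 1.07. The small Tims summed to 4.99 and 6.43 CP10k, a ratio of 1.29. Of the outer sum, Tomm7 alone took 3.11 CP10k in CM and 6.48 in TSF. All of these sums include the shallow CM cell described further on. Of the outer genes 4 had a ratio above 0 and of the inner genes 6.

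The outer median depended on which genes were counted, on the scale and on the shallow CM cell described further on. Without Tomm34, a cytosolic cochaperone counted there by its name, it was 0.18, above the inner median of 0.12. The outer range would then start at -0.51 (Tomm70a). Relative to the median of all genes, and with Tomm34 kept, the outer median was 0.11, against 0.24 for the inner membrane. As deposited, the outer median is the value of Tomm40, which would be 0.68 without the shallow cell if that cell held 1 UMI. Medians of the parts without that cell were not computed, so the contrast between outer and inner membrane is not firm. With 1 library per group and 5 to 9 genes in a part, no test of this contrast was made.

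**Figure D3:**
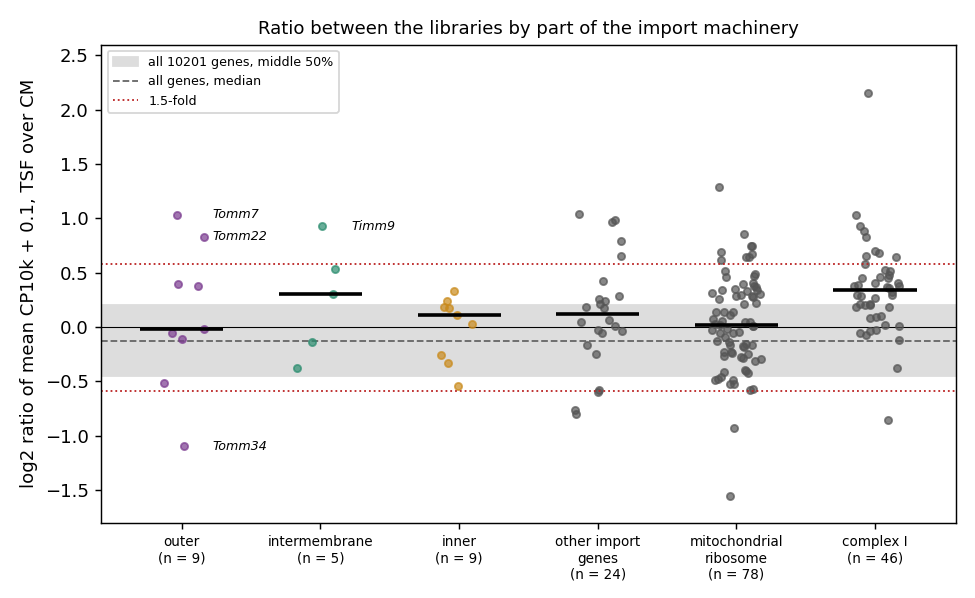
Log2 ratio of mean CP10k + 0.1, TSF over CM, of each gene (points) and the group median (black bar) for the outer membrane, intermembrane space and inner membrane members and for 3 comparison groups. The grey band is the middle 50% of all 10201 genes, the dashed line their median of -0.13 and the dotted lines 1.5-fold, and the inner membrane genes all lie between the dotted lines.

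A single shallow cell sets how far the CM levels can be read. The shallowest CM cancer cell had 973 UMIs and the next 5962, so 1 UMI in that cell alone is worth 0.354 CP10k of the CM mean, against 0.0125 in a cell of median weight. In the TSF library 1 UMI in the shallowest cell, with 909 UMIs, is worth 0.0791 CP10k. From a gene's CM mean and its number of CM cells with a UMI, it can be worked out whether that cell can have held one. For 8 of the 24 members it cannot, Tomm34 and Timm9 among them. Leaving that cell out gives log2 ratios of -1.14 for Tomm34 and 0.90 for Timm9, so their calls hold with 0.1 CP10k added. With the cell kept and 1 CP10k added instead, the log2 ratios are -0.35 for Tomm34 and 0.29 for Timm9, and neither is called. Timm21, also among the 8, goes from 0.024 to -0.0043.

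For the other 16 members the shallow cell may have held a UMI, and whether it did is not known from the means. If it held 1, the log2 ratio without it is 1.15 for Tomm7 and 1.11 for Tomm22, and if it held none, 0.98 and 0.78, so both remain called. The sign turns with 1 such UMI for 5 members. The log2 ratio of Timm44 would be 0.46, that of Timm50 0.49 and that of Timm8a1 0.45, while Tomm40 would stand at 0.68 and Tomm70a at 0.0012. If the cell held none, Timm44 would instead stand at -0.59 and be called lower. Tomm20 stays below 0 with 1 UMI there, at -0.03, but would be 2.46 with the 10 that its mean allows at most.

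The counts of called genes move with it. Without the cell and with no UMI in it, 3 members are called higher and 2 lower, namely Tomm34 and Timm44. Taking each of the 16 genes by itself with 1 UMI there, 9 would be called higher and 0 lower. Among the 9 are Timm23, Timm17b and Timm10b of the inner membrane, Timm8b and Timm13 of the intermembrane space, and Tomm40 and Tomm5. The difference between outer and inner membrane genes in how many are called is therefore not firm. These counts were not made over all genes without the cell, so they have no background share beside them. Taking 0.354 CP10k off a low CM mean raises the ratio of any such gene, member or not. The counts are therefore not read as a trait of the members.

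Coding length ran alongside the ratios. Coding length, the summed coding exons of the longest coding transcript in GENCODE M21, goes from 165 nucleotides for Tomm7 to 1833 for Tomm70a. Across the 24 members, Spearman's rho between coding length and log2 ratio was -0.69, and it was -0.61 without Tomm34 and Tomm7. Within the 9 outer membrane genes it was -0.78 and within the 9 inner membrane genes -0.77. These values depend on the shallow CM cell. Without it, and with 1 UMI in it for each gene whose mean allows one, rho would be -0.43 over the members, -0.58 over the outer and -0.60 over the inner membrane genes. All describe genes of the same pair of libraries, and genes are not replicates. The level moved with both, as rho between the summed level and the log2 ratio was 0.53 over the members and between level and coding length -0.50, and the part of the level in the relation was not tested.

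The same relation was weaker over all genes, with a rho of -0.14 over 9875 genes that have a coding length. Genes of up to 300 nucleotides had a median log2 ratio of 0.31 (192 genes), and 74.5% of them were above 0. The 7 members of that class, Tomm6, Tomm7, Timm8a1, Timm8b, Timm9, Timm10 and Timm13, had a median of 0.38 and 5 were above 0. From 301 to 600 nucleotides the median was 0.06 for all 1168 genes and 0.19 for 7 members. From 901 to 1500 nucleotides it was -0.16 for all 2691 genes and -0.33 for 5 members, none of which was above 0 as deposited, though Tomm40, Timm50 and Timm44 are among the genes whose sign can turn with that cell. Read beside genes of like length, 18 of the 24 members lay within 0.4 of the median log2 ratio of their class. The share of all genes within 0.4 of their class median was not computed, so this count is not read as a trait of the members. The other 6 were Tomm34, 0.94 below its class median, Tomm22 and Tomm7, 0.77 and 0.73 above it, Timm8a1, 0.68 below, Timm9, 0.62 above, and Timm10, 0.45 below. The place of Timm8a1 rests on the shallow CM cell. Without that cell and with 1 UMI in it, Timm8a1 would be at 0.45, beside the class median of 0.31 as deposited.

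**Figure D4:**
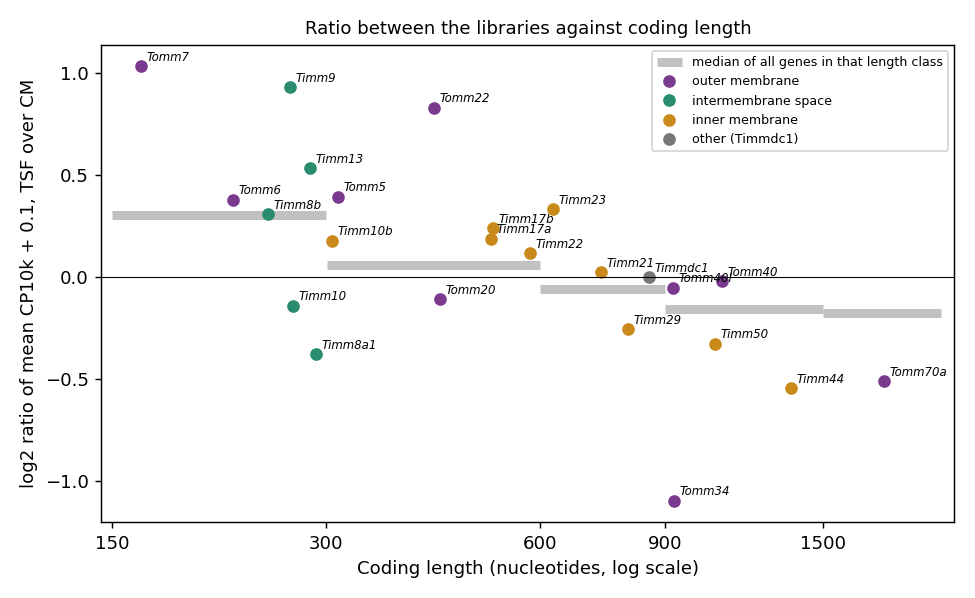
Log2 ratio of mean CP10k + 0.1, TSF over CM, against coding length (nucleotides, log scale) for the 24 members, coloured by part of the machinery, with grey bars for the median of all genes in the same length class. The ratios fall from the left, where Tomm7 and Timm9 stand at 1.03 and 0.93, to the right, where Tomm70a stands at -0.51, and the grey bars fall from 0.31 to -0.18.

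Sequence just before the transcription start was compared for the called genes that have a RefSeq promoter entry and for the divergent pair Timm8b and Sdhd. RefSeq entries on GRCm38.p6 were matched by symbol for 24 of the 27 genes. The stretches run 5′ to 3′ on the gene's own strand, from 110 to 11 bases before the start, or from 51 to 1 for Timm8b, and lie outside annotated exons. Capitals mark the ETS core CCGGAAG or the E-box CACGTG on either strand. The first is bound by ETS factors such as GABP, long linked to nuclear genes of mitochondria, and the second by MYC and USF.
Tomm22, chr15:79670758-79670857, plus strand: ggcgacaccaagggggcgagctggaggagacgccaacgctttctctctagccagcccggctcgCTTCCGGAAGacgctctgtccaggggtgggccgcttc
Timm9, chr12:71136686-71136785, minus strand: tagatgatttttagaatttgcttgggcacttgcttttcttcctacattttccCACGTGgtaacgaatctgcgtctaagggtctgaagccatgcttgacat
Tomm34, chr2:164071180-164071279, minus strand: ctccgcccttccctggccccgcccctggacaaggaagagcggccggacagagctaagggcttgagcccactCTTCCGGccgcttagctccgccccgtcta
Timm8b, chr9:50603850-50603900, plus strand: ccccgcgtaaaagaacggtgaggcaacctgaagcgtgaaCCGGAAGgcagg

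In Tomm22 the capitals cover 2 overlapping matches, one on each strand. Within 250 bases before the start, the ETS core was present in 9 of the 24 members with an entry, against 7.83% of all 27025 genes with one. Among those past the filter it was present in 8 of 21 members, against 17.7% of 8101 genes. The 8 included genes on both sides of 0, such as Tomm22 and Timm23 above it and Tomm34, Tomm70a and Timm29 below it. Past the filter, the E-box was present in 3 of the 21 members, against 10.3% of genes. The NRF1 motif was present in 1, Tomm20, against 10.4%, and the full cAMP response element TGACGTCA in 0, against 3.30%. The NRF1 and CREB motifs were searched on both strands as well. A match describes letters in a window and not a bound site.

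Some members share their upstream region with a divergent gene. Of 26 members, Tomm6os left aside, 8 had a protein-coding gene on the other strand whose 5′ end lay within 1000 bases. In 4 of these a gap of under 200 bases separated the pair, and in 3 the genes overlapped at their 5′ ends. Timm8b lies 98 bases from Sdhd, a membrane subunit of succinate dehydrogenase, which had 0.792 CP10k in CM and 1.28 in TSF, a log2 ratio of 0.63 beside 0.31 for Timm8b. Timm9 lies 164 bases from 2700049A03Rik, which had 0.0254 and 0.0768 CP10k and was seen in 3 CM cells and 28 TSF cells. In 4 pairs the signs differed, among them both other pairs with a gap under 200 bases. Parg, 51 bases from Timm23, had a log2 ratio of -0.42 beside 0.33, and Pqbp1, 88 bases from Timm17b, had -0.17 beside 0.24. Over all 8 pairs, 4 had the same sign in both genes. Among these 4 was Tomm6 with Frs3, which did not pass the filter and was seen in 1 CM cell and 5 TSF cells.

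Genes that act with the Tomm and Timm proteins were described from a list of 24, all past the filter. Of these, 5 were called higher, 3 lower and 16 neither, with a median log2 ratio of 0.12. Over all genes past the filter, 7.33% were called higher and 17.3% lower, and 40.3% had a ratio above 0. Without the shallowest CM cell and with no UMI in it, 5 are called higher and 4 lower, Gfer being added. Taking each of the 13 genes whose mean allows it with 1 UMI there, 7 would be called higher, namely Romo1, Mtx2, Dnajc19, Dnajc15, Grpel1, Pmpcb and Immp1l, and 1 lower, Hspa9. No share over all genes was computed for these counts without the cell. The 7 genes of the inner membrane had ratios above 0, although Immp2l, at 0.01, falls to -0.02 without the shallow cell. Romo1, a small subunit tied to TIM23, had 1.28 CP10k in CM and 2.73 in TSF, a log2 ratio of 1.04. It was seen in 72.4% of CM cells (interval 52.8 to 87.3%) and 95.7% of TSF cells (interval 90.8 to 98.4%), the only gene of this list or of the members whose intervals lay apart. Over all genes, intervals lay apart for 1.14% with TSF higher and 1.51% with CM higher. Pam16, a regulator of the import motor, had 0.508 and 1.09 CP10k, a log2 ratio of 0.97. Its motor partners Dnajc19 and Dnajc15 had log2 ratios of 0.42 and 0.29. Oxa1l, an insertase, and Immp1l and Immp2l, peptidases of this membrane, had 0.18, 0.18 and 0.01.

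In the matrix the values went the other way for the chaperones. Hspa9, the Hsp70 that drives the motor, had 2.54 CP10k in CM and 1.46 in TSF, a log2 ratio of -0.76. Hspd1, the large subunit of the folding chamber, had 6.69 and 4.39 CP10k, a log2 ratio of -0.60, while its lid Hspe1 had 4.08 and 4.00. Pmpca, the noncatalytic subunit of the presequence peptidase, had 0.511 and 0.250 CP10k, a log2 ratio of -0.80, whereas the catalytic subunit Pmpcb had 0.541 and 0.659. Both chaperone values rest on the shallowest CM cell. Without it, and with 1 UMI in it, the log2 ratio would be -0.60 for Hspa9, still called, and -0.57 for Hspd1, no longer called. With the most UMIs there that their means allow, 6 and 17, they would turn to 1.55 and 2.51. For Pmpca that cell cannot have held a UMI. Mipep, another presequence peptidase, was listed at 0 in CM and seen in 22 TSF cells. It counts among the 5 called higher only through the added 0.1 CP10k, and no fold is given for it. The nucleotide exchange factors Grpel1 and Grpel2 had log2 ratios of 0.26 and -0.24, and the peptidase Xpnpep3 had -0.05.

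At the outer membrane, Mtx1, a metaxin of the sorting and assembly machinery, had 0.404 CP10k in CM and 0.693 in TSF, a log2 ratio of 0.65. Samm50, its barrel, had 0.4995 and 0.484 CP10k. Log2 ratios were 0.06 and 0.21 for the other metaxins Mtx2 and Mtx3 and -0.17 and 0.05 for the carrier homologs Mtch1 and Mtch2. In the intermembrane space Chchd4, the oxidoreductase that folds the small Tims, had 0.176 and 0.378 CP10k, a log2 ratio of 0.79. Gfer, which reoxidises Chchd4, had 0.613 and 0.379 CP10k, a log2 ratio of -0.58. Without the shallow cell it would be -0.62 if that cell held no UMI and 0.38 if it held 1.

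Set beside 2 large families of imported proteins, the members lay between them by median log2 ratio as deposited. Over all genes past the filter, 7.33% were called higher and 17.3% lower, and 40.3% had a ratio above 0. The 78 mitochondrial ribosomal protein genes had a median log2 ratio of 0.02, with 9 called higher and 2 lower. The 46 genes of the complex I family, chosen by symbol and including 8 assembly factors and 1 pseudogene symbol, had a median of 0.34, with 9 higher and 1 lower, and 84.8% of them were above 0. The 37 others among them had a median of 0.33, with 9 higher and 1 lower. The 24 members had a median of 0.07. In these families too, coding length and log2 ratio ran opposite, with a rho of -0.44 over the 78 ribosomal genes and -0.39 over 45 complex I family genes that have a coding length. The values of the families were not computed without the shallow CM cell, so the order of the medians is not firm. No test of a difference between the groups was made.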

How the data were processed

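Single-cell libraries were made by the authors with a 10x Genomics 5′ kit from lungs of 3 pooled mice per group, and reads were mapped with Cell Ranger 5.0.1 to mm10 (GRCm38.p6) with a CD90.1 sequence. Counts were imported with Seurat 4.1.0 and corrected for ambient RNA with a customised SoupX 1.6.2, which can lower genes that are abundant in free RNA. The authors marked multiplets by clusters with markers of several cell types, checked with scDblFinder scores, and removed none on subclustering the cancer cells. No doublet caller was run here. The deposited cancer cell table gives mean CP10k (each column sums to 10000), the number of cells and the percent of cells with a UMI. A second deposited table lists, cell by cell, total UMI counts and the percent of mitochondrial UMIs, with medians of 1.99% in the TSF and 1.72% in the CM cancer cells. Total UMIs of the cancer cells were 3937739 (TSF) and 726849 (CM). The authors' fold changes, p-values and enrichment scores were not used, nor were 2 sample names of the cell table that match no described sample. Values without the shallowest CM cell, and complex I genes without assembly factors, were added after the data were seen. Libraries of day 11 have no gene values here and were not analysed.

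Ratios were computed as log2 of mean CP10k + 0.1, TSF over CM, among genes in at least 10% of cells of either library, 70 of which were at 0 in CM and 10 at 0 in TSF. Called genes passed 1.5-fold. All genes that start with Tomm or Timm and all of the list of other import genes were named, with full values for called genes and core subunits. Members and lists were chosen with earlier results of these data known. Membrane parts were assigned from background knowledge. The count of UMIs that the shallowest CM cell can hold took the other cells with a UMI to be the deepest ones with 1 UMI each. Of genes seen in 1 cell, 99.1% (TSF) and 98.7% (CM) had a mean that matched 1 to 3 UMIs in a cell of that library, within 0.01 UMI. Coding length is that of the longest coding transcript. Coordinates and coding lengths came from GENCODE M21 (GRCm38), matched by identifier for 23749 of 23771 genes. The calculations were tested on simulated data. Scripts ran in Python 3.11.15, with exact intervals from scipy 1.17.1, tables in pandas 2.3.3 and numpy 2.4.6, and figures in matplotlib 3.10.9.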

Additional observations from a re-analysis of the deposited data

How the results depend on the processing

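The median log2 ratios, in the order outer membrane, small Tims and inner membrane, were -0.02, 0.31 and 0.12. The outer median turned to 0.18 with a filter of 25% of cells, to 0.068 after rescaling without Rpl and Rps genes, to 0.11 after centring on the median of all genes and to 0.18 without Tomm34. The small Tims had 0.20 with a pseudocount of 1, 0.32 with 0.01, 0.40 after rescaling, 0.43 after centring and 0.24 with Timm10b among them. The inner membrane had 0.046, 0.14, 0.20, 0.24 and 0.070 in these settings, and the outer membrane -0.0087 with a pseudocount of 1. As differences in the share of cells, the medians were -1.59, 1.86 and 5.51 percentage points. The count called lower, 1, became 0 with a pseudocount of 1, 2 with 0.01 and 0 without Tomm34, while 2 to 4 members were called higher. With a pseudocount of 1, Timm9, at 0.29, and Tomm34, at -0.35, were no longer called. No called member changed sign in any setting. Without a filter beyond a UMI in a cell, the medians and counts did not move. The medians of the parts were not computed without the shallowest CM cell. The choices to leave out Tomm34 and to move Timm10b were made after the data were seen. Rpl and Rps genes took 23.9% of CP10k in TSF and 18.6% in CM. No replicate could be left out, since each group is 1 library, and no paired analysis was possible because there is only 1 library per group. The 29 CM cells limit the shares most, and no member had exact intervals that lay apart.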
